A study of Mus musculus with 7 samples.

Results

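The cytosolic ribosomal protein genes were taken by name from the table of 53465 genes: protein-coding genes called Rpl or Rps plus a number with an optional letter, together with Rpsa, Rplp0, Rplp1, Rplp2 and Fau, without the Rps6k kinases and without pseudogenes. The rule gave 81 genes, 49 of the large and 32 of the small ribosomal subunit, spread over 20 chromosomes. Rps4l, whose name has this form, is annotated as a transcribed processed pseudogene and was left out. EMT6 is a mouse mammary carcinoma line that was grown in the mammary fat pad of Balb/c mice. RNA was sequenced from 3 EMT6-P (parental) tumors under an isotype control antibody, 3 EMT6-PTR tumors under αPD-L1 antibody and 1 EMT6-PTR metastasis, all dosed at 250 μg per mouse every 3 days until the institutional endpoint. EMT6-PTR is a variant selected in mice whose tumors grew again under αPD-L1, EMT6-P cells were recovered from mice under IgG, and the labels write PDR for it. Since the EMT6-PTR tumors were also under αPD-L1 when taken, the selected variant and the antibody cannot be told apart here. Nothing in the labels says that the tumors of a group came from separate selections, so that p-values measure the spread between these samples only.

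Each cytosolic ribosome carries about the same number of copies of every core ribosomal protein, and the genes for these proteins are among the most highly transcribed of growing cells. Many of their mRNAs start with a C followed by a run of pyrimidines, the 5′ terminal oligopyrimidine (TOP) tract, through which mTORC1 and the La-related protein LARP1 set how strongly they are translated. That control acts on translation, which was not measured here. Some of the proteins also act outside the ribosome, and a few have paralogues made in particular tissues or under stress.

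Start-site sequences were available from RefSeq (GRCm38.p6) for 61 of the 81 genes, with 73 listed start sites. A C at the listed start followed by at least 4 pyrimidines stood at 14 of the 73 sites (19.2%), against 2.47% of 32778 start sites of other genes. Counting any C within 5 bases of the listed start that was followed by at least 4 pyrimidines gave 31 sites (42.5%) against 18.3%. Bases before that C were not looked at, so that a run may begin further upstream. A longer run, C followed by at least 7 pyrimidines, stood at 28.8% of the sites against 4.31%. The windows shown here run from 10 bases before to 20 bases after a listed start. Where there is a run, it is in capitals from that C on, also where pyrimidines precede it. They belong to the genes with the 5 smallest p-values between the tumor groups (Rps27l, Rpl35, Rpl37a, Rps18 and Rps21), to Rps24, which differed least between the groups among the small subunit genes, and to the muscle paralogue Rpl3l. For Rps27l, Rps21, Rps24 and Rpl3l a further start is listed downstream.
Rps27l, chr9:66946076-66946105, plus strand: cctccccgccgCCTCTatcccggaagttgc
Rpl35, chr2:39005112-39005141, minus strand: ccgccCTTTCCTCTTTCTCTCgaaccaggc
Rpl37a, chr1:72711250-72711279, plus strand: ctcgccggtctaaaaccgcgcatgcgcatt
Rps18, chr17:33955646-33955675, minus strand: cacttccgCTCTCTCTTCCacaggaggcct
Rps21, chr2:180257369-180257398, plus strand: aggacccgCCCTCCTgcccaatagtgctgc
Rps24, chr14:24490668-24490697, plus strand: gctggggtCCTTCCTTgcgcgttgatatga
Rpl3l, chr17:24727816-24727845, plus strand: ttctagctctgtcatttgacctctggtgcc
The windows of Rpl37a and Rpl3l held no such run from a C within 5 bases of the start, and those of Rpl35 and Rps18 held long ones. In the windows from 250 bases before to 50 after the start, CCGGAAG stood on either strand at 35.6% of the sites of ribosomal protein genes against 8.80% of the others, CACGTG at 11.0% against 7.14%, and TATAAA at 8.22% against 13.6%. A match is a description of these letters and not a site of binding.

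Ribosomal protein mRNA made up a smaller part of the library in every EMT6-PTR tumor than in any EMT6-P tumor. The 81 genes held 7.40%, 7.11% and 6.56% of all estimated counts in EMT6-P replicates 1 to 3, 5.22%, 4.28% and 6.39% in EMT6-PTR replicates 1 to 3, and 5.74% in the metastasis. The groups of tumors did not overlap, and EMT6-PTR replicate 3 lay just under the lowest EMT6-P tumor. Large subunit genes held 3.86% to 4.39% in EMT6-P and 2.54% to 3.75% in EMT6-PTR, and small subunit genes 2.70% to 3.01% and 1.75% to 2.64%. In EMT6-PTR replicate 2 the single gene CT010467.1 held 13.8% of all counts, against 0.433% to 1.35% in the other libraries. With that gene taken out of the total, the share in this tumor was 4.97%. These are bulk tumors, in which fewer cells of a type and less RNA per cell cannot be told apart.

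**Figure D1:**
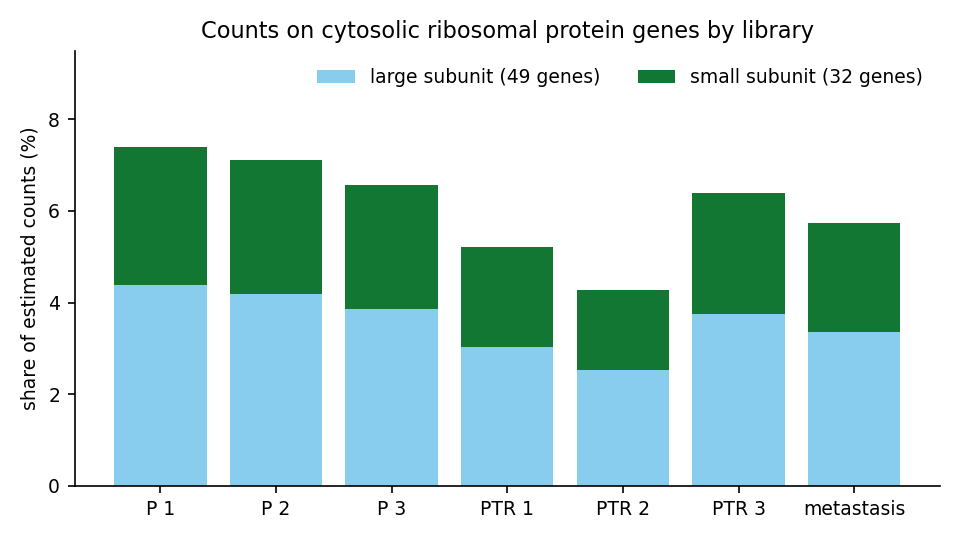
Share of all estimated counts (%) that fell on large subunit (light) and small subunit (dark) ribosomal protein genes, 1 bar per library. The 3 EMT6-P tumors reach 6.56% to 7.40%, the 3 EMT6-PTR tumors 4.28% to 6.39% and the metastasis 5.74%.

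Total estimated counts per library lay between 20430110 and 25213472, and 78 of the 81 genes had at least 5 CPM (counts scaled to a common library size, here on the upper-quartile scale) in every library. The other 3 were tissue-restricted paralogues, of which only Rpl3l passed the filter on low counts, so that 79 genes were tested. Summed levels of 8 fibroblast markers lay between 5752 and 9446 CPM in the other 5 tumors and at 21472 CPM in EMT6-PTR replicate 3, which also had the lowest summed level of proliferation markers, 198 CPM against 1000 to 1253 CPM, and of epithelial keratins and adhesion genes, 615 CPM against 2386 to 2732 CPM.

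Across the genes, the difference between the groups was a shared shift. When the 3 resistant tumors were set against the 3 parental ones, 77 of the 79 tested genes had a log2 fold change below 0, against 47.7% of all 15645 genes tested. The median log2 fold change was −0.41, with quartiles of −0.47 and −0.34, against 0.03 over all genes tested. Large subunit genes had a median of −0.41, with 45 of 47 below 0, and small subunit genes a median of −0.42, with 32 of 32 below 0. At an adjusted p under 0.05, edgeR's quasi-likelihood test called 0 of the 79 genes and 0.0% of all genes, and the smallest adjusted p of a ribosomal protein gene was 0.421. An unadjusted p under 0.05 with the lower level in EMT6-PTR was reached by 31 of the 79 genes, against 5.57% of all genes tested. The levels of the groups did not overlap for 39 genes, lower in EMT6-PTR in each case, against 11.8% of all genes. None lay wholly higher, against 9.52% of all genes. DESeq2 with its own scaling called 8 of the 79 genes, each lower in EMT6-PTR, against 0.914% of all genes. They were Rps27l, Rpl7a, Rpl35, Rpl5, Rpl37a, Rpl7, Rps18 and Rpl10a, with adjusted p-values from 0.00245 to 0.034. Limma-voom called 0.

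**Figure D2:**
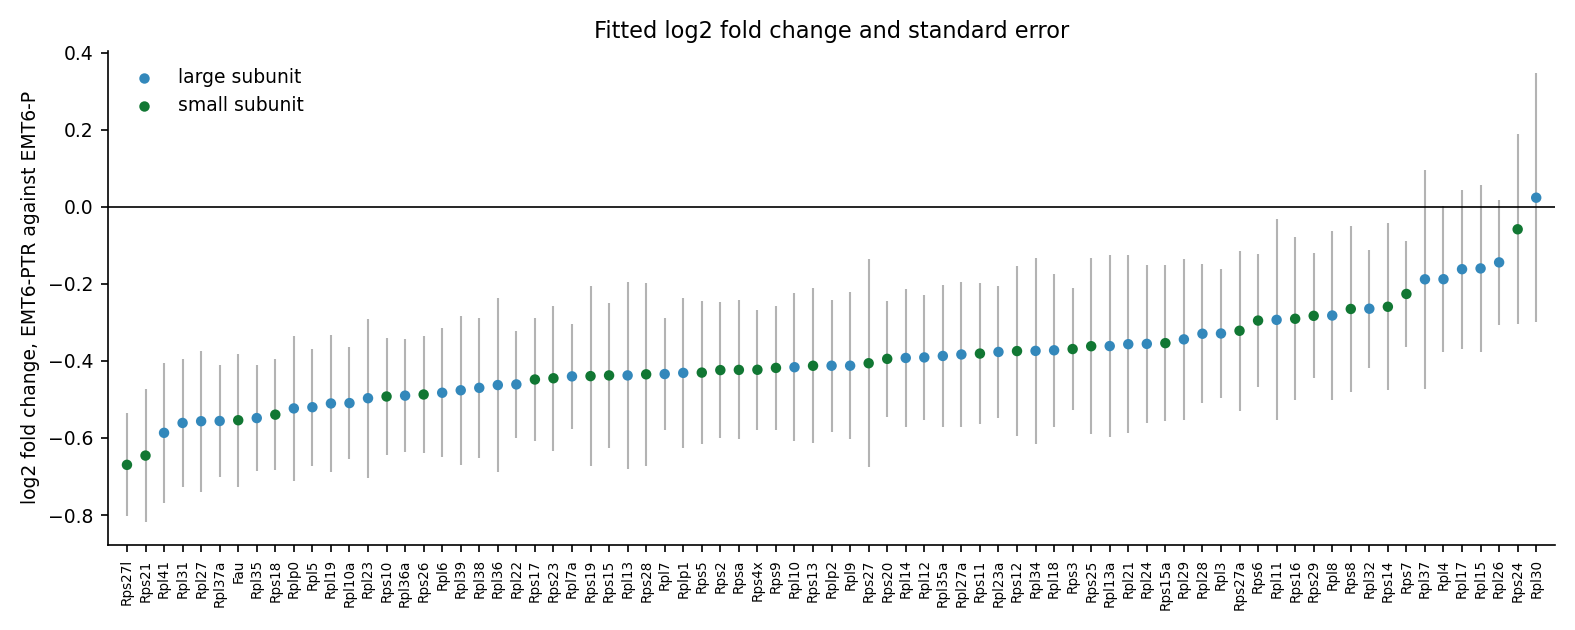
Fitted log2 fold change of EMT6-PTR against EMT6-P (points) with its standard error (lines) for 77 ribosomal protein genes in order, coloured by subunit. Rpl3l (2.59) is left out for scale, and 1 gene is not reported here. The points run from −0.67 for Rps27l to 0.02 for Rpl30, and the subunits are mixed along the order.

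The shift was not equal in the 3 EMT6-PTR tumors. Measured as log2 CPM minus the EMT6-P mean, the EMT6-PTR tumors had medians over the 79 genes of −0.58, −0.57 and −0.13 in replicates 1, 2 and 3, against 0.07, 0.05 and −0.11 in the EMT6-P tumors. The medians over all genes tested lay between −0.03 and 0.01 in all 7 libraries. EMT6-PTR replicate 1 was below every EMT6-P tumor for 78 of the 79 genes (32.5% of all genes), replicate 2 for 75 (38.1%) and replicate 3 for 39 (42.7%). Replicate 3 was above both other EMT6-PTR tumors for 70 genes (41.9% of all genes). The number of genes with an unadjusted p under 0.05 turned on single tumors: it was 72 of 80 without EMT6-PTR replicate 3, where 11.5% of all genes passed. It was 17 of 80 without EMT6-PTR replicate 1 (8.45% of all genes) and 18 of 80 without replicate 2 (3.77%). Leaving out an EMT6-P tumor gave 7 of 80 for replicate 1 (1.89%), 6 of 79 for replicate 2 (2.75%) and 23 of 79 for replicate 3 (2.73%). The median log2 fold change stayed between −0.57 and −0.33 when any 1 tumor was left out. The median within-group SD of log2 CPM over these genes was 0.11 for the parental and 0.26 for the resistant tumors, against 0.15 and 0.39 over all genes.

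**Figure D3:**
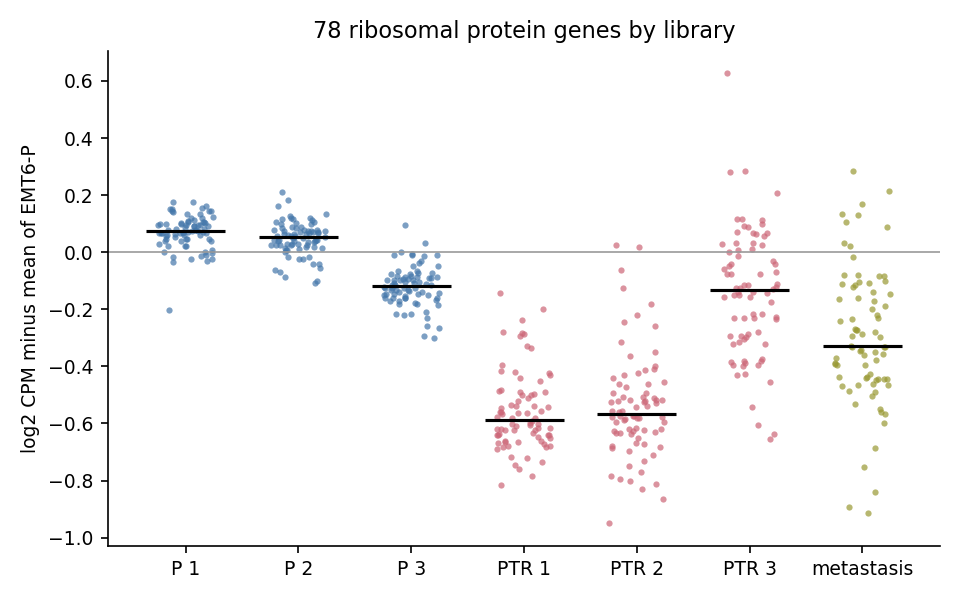
Log2 CPM minus the mean of the EMT6-P tumors for 78 ribosomal protein genes (points) in each of 7 libraries, with the median as a bar. Rpl3l is left out for scale. EMT6-PTR replicates 1 and 2 lie near −0.58 and −0.57, while EMT6-PTR replicate 3 reaches into the range of the EMT6-P tumors.

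Short transcripts as a class moved with this result. Ribosomal protein mRNAs are short, with a median principal transcript of 780 bp against 2896 bp over all genes tested. Among genes that do not code for cytosolic ribosomal proteins, the median log2 fold change was −0.24 for 828 genes with a principal transcript under 1000 bp, −0.13 from 1000 to 2000 bp, 0.02 from 2000 to 4000 bp and 0.18 at 4000 bp or more. For the 138 of these genes that were both under 1000 bp and at 100 CPM or more in EMT6-P, the median was −0.41, 87.7% lay below 0, 43.5% had an unadjusted p under 0.05 with the lower level in EMT6-PTR and 52.9% did not overlap between groups. The corresponding shares of the ribosomal protein genes were 97.5%, 39.2% and 49.4%. In the metastasis no such order by length was seen, with a median of −0.02 for genes under 1000 bp and at 4000 bp or more. The part of transcript length in the result was not tested. Among 78 ribosomal protein genes themselves, Spearman's rho of the log2 fold change was 0.25 with transcript length and −0.15 with GC content, as a description over genes that share their libraries.

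**Figure D4:**
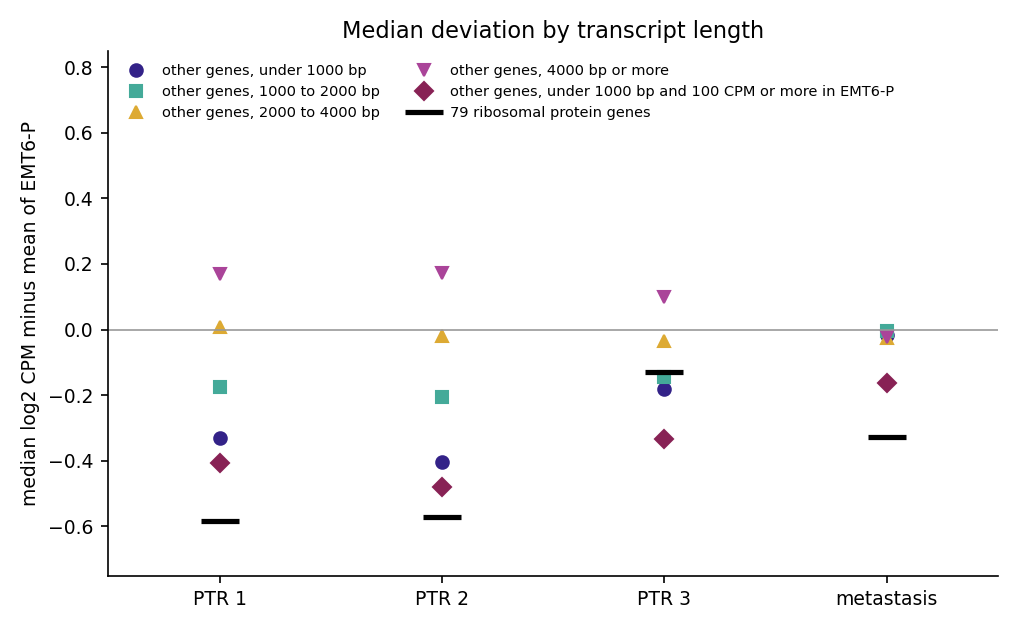
Median log2 CPM minus the EMT6-P mean in the 3 EMT6-PTR tumors and the metastasis, for the 79 ribosomal protein genes (bars) and for other tested genes by principal transcript length (symbols). In all 3 EMT6-PTR tumors the symbols of the length classes fall in order of length. In replicates 1 and 2 the ribosomal protein genes lie lowest. In replicate 3 they lie at −0.13, above the short and abundant genes at −0.33.

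The genes with the smallest p-values came from both subunits. Rps27l, on chr9:66946086-66949516 (GRCm38, gene span of the annotation), codes for a paralogue of Rps27 that is induced by p53. It was at 138, 118 and 127 CPM in the EMT6-P tumors, 86.4, 72.6 and 82.0 CPM in the EMT6-PTR tumors and 92.5 CPM in the metastasis. All 3 EMT6-PTR tumors, replicate 3 included, were below every EMT6-P tumor, and the log2 fold change was −0.67 (SE 0.13), with an unadjusted p of 0.00191 and an adjusted p of 0.421 by edgeR.
Rps21, a small subunit protein, was at 579, 518 and 481 CPM in EMT6-P and 305, 302 and 402 CPM in EMT6-PTR, and its log2 fold change was −0.65 (SE 0.17). Rpl35, a protein at the rim of the exit tunnel from which the new peptide emerges, was at 367, 374 and 317 CPM against 228, 239 and 257 CPM, with a log2 fold change of −0.55 (SE 0.14). Its 3 EMT6-PTR tumors lay close together and apart from EMT6-P.
Rpl37a, a zinc-binding protein of the large subunit, was at 589.5, 627 and 568 CPM against 379, 379 and 456 CPM, with a log2 fold change of −0.56 (SE 0.15). Rps18, in the head of the small subunit, was at 589.8, 578 and 523 CPM against 355, 378 and 430.3 CPM, with a log2 fold change of −0.54 (SE 0.14). The unadjusted p-values of these 4 genes lay between 0.00599 and 0.00837.

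Rpl5 and Rpl11 bind the 5S rRNA together, and the free particle binds Mdm2 and thereby stabilizes p53. Rpl5 was at 1264, 1279 and 1076 CPM in EMT6-P and 898, 801 and 825 CPM in EMT6-PTR, without overlap, and its log2 fold change was −0.52 (SE 0.15). Rpl11 was at 762, 779.6 and 684 CPM and 465, 496 and 855 CPM, with a log2 fold change of −0.29 (SE 0.26). EMT6-PTR replicate 3 thus had the highest Rpl11 level of the 6 tumors, but was within the range of the other EMT6-PTR tumors for Rpl5.

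The P stalk recruits the GTPases of translation and is built from Rplp0 and dimers of Rplp1 and Rplp2. Rplp0 was at 2008, 1970.2 and 1654 CPM in EMT6-P and 1424, 1073 and 1423 CPM in EMT6-PTR, with a log2 fold change of −0.52 (SE 0.19). Rplp1 was at 2081, 2026 and 1749.8 CPM and 1313, 1265 and 1767 CPM, with a log2 fold change of −0.43 (SE 0.20), and its groups overlapped through EMT6-PTR replicate 3. For Rplp2, at 837, 869 and 729 CPM and 571, 541 and 717 CPM, the groups did not overlap and the log2 fold change was −0.41 (SE 0.17).
Fau and Rps27a are made as fusions with a ubiquitin-like protein and with ubiquitin, from which the ribosomal part is cut. Fau was at 767, 798 and 707 CPM in EMT6-P and 472, 456 and 620.1 CPM in EMT6-PTR, with a log2 fold change of −0.55 (SE 0.17). Rps27a was at 722, 639.5 and 596 CPM and 429, 472 and 666 CPM, with a log2 fold change of −0.32 (SE 0.21) and overlapping groups.
The 9 genes of the polypeptide exit tunnel and its rim had a median log2 fold change of −0.46, and all 9 lay below 0, 5 of them with an unadjusted p under 0.05 (5.57% of all genes and 31 of the 79 ribosomal protein genes had one). The 7 genes of mRNA entry, decoding and the small subunit head had a median of −0.42, with 3 such genes, and the 5 genes of mRNA exit and the platform a median of −0.43, with 1.

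Of the 7 genes known for functions outside the ribosome, all had a log2 fold change below 0, with a median of −0.37. Rpl13a, a component of the GAIT complex that silences inflammatory mRNAs after interferon-γ, was at 1205, 1153 and 1013 CPM in EMT6-P and 698, 752 and 1174 CPM in EMT6-PTR, with a log2 fold change of −0.36 (SE 0.24). Replicate 3 of EMT6-PTR lay among the EMT6-P tumors. Rpl23, which binds Mdm2, was at 1360.1, 1322 and 1219 CPM and 838, 755 and 1172 CPM, with a log2 fold change of −0.50 (SE 0.21) and no overlap. Rpl26, which promotes p53 translation, was at 57.6, 71.4 and 70.9 CPM and 54.2, 56.0 and 70.8 CPM, with a log2 fold change of −0.14 (SE 0.16) and overlapping groups.
Rpsa, also known as the laminin receptor, was at 3165, 3319 and 2742 CPM and 2444, 1986 and 2451 CPM, with a log2 fold change of −0.42 (SE 0.18). Rps3, which also takes part in DNA repair and NF-κB transcription, was at 1099, 1079 and 913 CPM and 731, 779.7 and 883 CPM, with a log2 fold change of −0.37 (SE 0.16). Neither overlapped between groups, and neither had an unadjusted p under 0.05, at 0.0538 and 0.0560 by edgeR's quasi-likelihood test.
Rps6, the substrate of S6 kinases, was at 939.7, 991 and 818 CPM and 775, 627 and 839 CPM, with a log2 fold change of −0.30 (SE 0.17) and overlapping groups. Rpl10, which joins the large subunit late in its maturation, was at 1899, 1653 and 1619.7 CPM and 1169.8, 1575 and 1131 CPM, with a log2 fold change of −0.42 (SE 0.19). For Rpl10 the order within EMT6-PTR was another one, replicate 2 being the highest and replicate 3 the lowest.

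The tissue-restricted paralogues were at low levels. Rpl3l, on chr17:24727820-24736143, replaces Rpl3 in heart and skeletal muscle. It had 40, 2 and 19 counts in the EMT6-P tumors, 382, 7 and 17 counts in the EMT6-PTR tumors and 15 counts in the metastasis. EMT6-PTR replicate 1 alone stood out, and the log2 fold change of 2.59 (SE 1.59), with an unadjusted p of 0.151 by edgeR, turned to −0.87 without that tumor. The summed level of 10 skeletal muscle markers was 823, 16.4 and 473 CPM in EMT6-P, 5267, 9.69 and 6.56 CPM in EMT6-PTR and 4.72 CPM in the metastasis. The 3 libraries with the highest muscle sums were the 3 with the highest Rpl3l level, and the part of muscle tissue in the Rpl3l value was not tested. Rpl3 itself was at 1257, 1199.9 and 1019 CPM and 826, 906 and 1034 CPM, with a log2 fold change of −0.33 (SE 0.17).

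**Figure D5:**
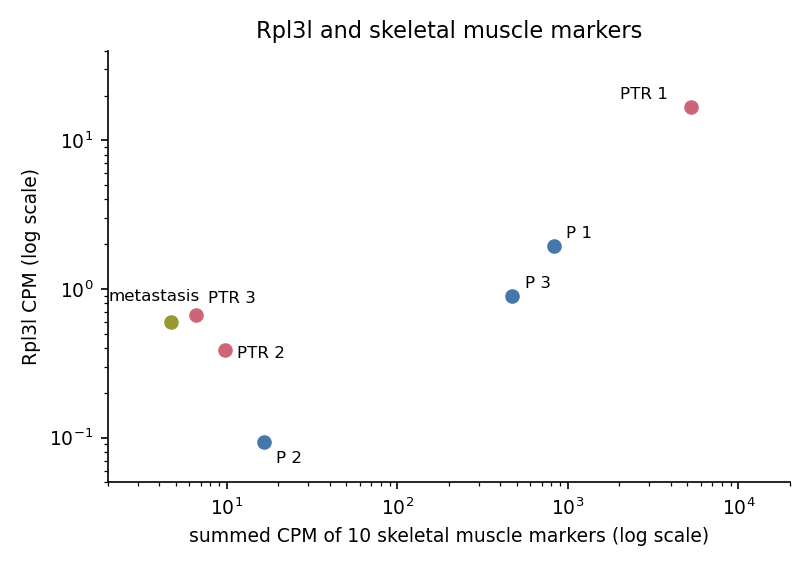
Rpl3l level against the summed level of 10 skeletal muscle markers, both in CPM on log scales, 1 point per library. EMT6-PTR replicate 1 is highest on both axes, EMT6-P replicates 1 and 3 follow, and the other 4 libraries have at most 16.4 CPM of muscle markers and 0.66 CPM of Rpl3l.

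Rpl39l, on chr16:10170226-10174911, a paralogue of Rpl39 known from testis and from some tumors, had 7, 32 and 22 counts in EMT6-P, 1, 6 and 1 counts in EMT6-PTR and 0 in the metastasis. The gene was too low for the filter. All EMT6-PTR values were below every EMT6-P value, but by a gap within counting error. EMT6-P replicate 1, with 7 counts, was at 0.341 CPM, and EMT6-PTR replicate 2, with 6 counts, at 0.334 CPM. Rpl10l, the testis paralogue of Rpl10, had 0 counts in all 7 libraries, which allows up to 3 counts per library by counting error. The widely made parents of these and other paralogues had a median log2 fold change of −0.43 over 8 genes, all below 0 and 5 with an unadjusted p under 0.05. With the lower level in EMT6-PTR, 31 of the 79 tested ribosomal protein genes and 5.57% of all genes reached such a p.
Rpl7, a large subunit protein, was at 1692, 1627 and 1456 CPM and 1171, 1183 and 1179.7 CPM, with a log2 fold change of −0.43 (SE 0.15), and the 3 EMT6-PTR tumors had nearly equal levels. Rpl22, whose paralogue Rpl22l1 it represses, was at 433, 429 and 383 CPM and 273, 311 and 320.0 CPM, with a log2 fold change of −0.46 (SE 0.14). Rpl36a was at 390.3, 408 and 373 CPM and 251, 266 and 317 CPM, with a log2 fold change of −0.49 (SE 0.15). None of these 3 genes overlapped between the groups, as for 39 of the 79 tested ribosomal protein genes and, with EMT6-PTR lower, 11.8% of all genes.
Rps4x, the X-linked small subunit gene, was at 1901, 1839 and 1629 CPM and 1253, 1304 and 1447 CPM, with a log2 fold change of −0.42 (SE 0.16). Rpl39 was at 449.7, 395 and 378 CPM and 243, 272 and 365 CPM, with a log2 fold change of −0.48 (SE 0.19). Rps27, the parent of Rps27l, was at 593, 624 and 603 CPM and 384, 333 and 657 CPM, with a log2 fold change of −0.41 (SE 0.27). EMT6-PTR replicate 3 had the highest Rps27 level of the 6 tumors, while its Rps27l level was below every EMT6-P tumor.

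Seen against the shared shift, few genes stood apart. The level of each gene relative to the median ribosomal protein gene of its library does not depend on how libraries are scaled. By this measure 3 genes were higher by 0.3 or more on the log2 scale in EMT6-PTR and 0 were lower by as much. Rpl3l differed by 1.75, Rpl30 by 0.33 and Rps24 by 0.30, and at the other end Rps27l by −0.27 and Rps21 by −0.25. Rpl30, on chr15:34440505-34443640, represses the splicing of its own transcript in yeast. It was at 304, 293 and 309 CPM in EMT6-P and 189, 266 and 466 CPM in EMT6-PTR, with a log2 fold change of 0.02 (SE 0.32). The EMT6-PTR tumors lay on both sides of EMT6-P, replicate 1 lowest and replicate 3 highest. Rps24, on chr14:24487125-24496959, was at 1463, 1316 and 1345 CPM and 901, 1389 and 1671 CPM, with a log2 fold change of −0.06 (SE 0.25) and the same order of tumors. Rpl30 has 9 named pseudogenes that together held 1.38 times as many counts as the gene.

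Between genes, levels differed more than between groups. Per kilobase of principal transcript, the highest means in EMT6-P were those of Rplp1 (3913 CPM per kb), Rpl41 (3138) and Rps12 (2735), and among the 79 tested genes the lowest were those of Rpl3l (0.712), Rpl26 (118) and Rps15a (125). The untested Rpl39l was at 1.41 CPM per kb and Rpl10l at 0. Rpl41, which codes for one of the shortest proteins known, was at 1753, 1901 and 1467 CPM in EMT6-P and 1069, 1037 and 1304 CPM in EMT6-PTR, with a log2 fold change of −0.59 (SE 0.18) and no overlap. Rps12 was at 1544, 1687 and 1191 CPM and 1155, 911 and 1346 CPM, and Rps15a at 691, 631 and 606 CPM and 411, 456 and 642 CPM, both with overlapping groups and log2 fold changes of −0.37 and −0.35. Levels per kilobase are uncertain in this family, because near-identical processed pseudogenes compete for reads and because they depend on the annotated transcript length. The principal transcript of Rps15a is annotated at 5130 bp, against a median of 780 bp over the tested genes of the family. Before division by length, its mean in EMT6-P was 643 CPM, against a median of 782 CPM over these genes. The 298 annotated pseudogenes whose names begin like those of ribosomal protein genes held 0.632% to 1.03% of all counts. This is 13.5% to 14.7% of the counts on the genes themselves. Pseudogenes of the family under other names were not counted. For 23 genes the pseudogenes named after them held more than 20% of the gene's counts, and for Rpl35a and Rpl30 more than the gene.

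In the metastasis, which has no replicate, ribosomal protein genes lay in the median between the group means and within the range of the EMT6-PTR tumors. Its median over the 79 genes was −0.33 on the log2 scale against the EMT6-P mean and 0.11 against the EMT6-PTR mean, where all genes tested had a median of −0.02. Abundant genes in general lay as low, since the median against the EMT6-P mean was also −0.33 for the 1936 other genes at 100 CPM or more in EMT6-P. It was below every EMT6-P tumor for 59 of the 79 genes (43.2% of all genes) and within the range of the EMT6-PTR tumors for 53 (45.2%). No gene was 2-fold or more higher than the EMT6-PTR mean (12.4% of all genes were), and 1, Rpl3l, was 2-fold or more lower (8.58%). For Rpl3l this rested on EMT6-PTR replicate 1, at 16.7 CPM. EMT6-PTR replicates 2 and 3 were at 0.390 and 0.664 CPM, and the metastasis lay between them at 0.599 CPM. After Rpl3l at −1.40, the lowest against EMT6-PTR were Rps2 at −0.47 and Rpl10 at −0.41, and the highest were Rps28 at 0.69, Rps27a at 0.63 and Rps27 at 0.60. Rps28, a protein of the mRNA exit site, was at 296 CPM in the metastasis, 155, 152 and 260.1 CPM in the EMT6-PTR tumors and 268, 257 and 242 CPM in the EMT6-P tumors, and so was above all 6 tumors. Rps2, at the mRNA entry site, was at 340.0 CPM in the metastasis, 579, 447 and 406 CPM in EMT6-PTR and 626, 676 and 619 CPM in EMT6-P, and so was below all 6 tumors. The metastasis held 8766 CPM of lung epithelial markers, against 5.09 to 27.6 CPM in the tumors, 7786 CPM of erythroid markers against 30.9 to 378 CPM, and 2980 CPM of neutrophil markers against 25.1 to 58.5 CPM. The part of these cells in its ribosomal protein levels was not tested.

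Other genes of protein synthesis mostly had log2 fold changes below 0 as well, as did 47.7% of all genes. An unadjusted p under 0.05 with the lower level in EMT6-PTR was found for 5.57% of all genes, and 11.8% did not overlap with EMT6-PTR lower. Of 7 ribosomal protein and ribosome-bound genes outside the naming rule, all had a log2 fold change below 0, with a median of −0.40 and 4 with an unadjusted p under 0.05. Among them Rpl22l1, the paralogue of Rpl22, was at 188, 162 and 134 CPM in EMT6-P and 98.0, 90.5 and 95.1 CPM in EMT6-PTR, with a log2 fold change of −0.77 (SE 0.16). Rps3a1 had a log2 fold change of −0.47 and the ribosome-bound scaffold Rack1 of −0.40. Of 78 mitochondrial ribosomal protein genes, whose products are imported into mitochondria, 76 lay below 0, with a median of −0.34, 30 with an unadjusted p under 0.05 and 46 without overlap. The smallest p-values among them were those of Mrps6 (−0.93), Mrpl58 (−0.69), Mrpl52 (−0.68) and Mrpl20 (−0.59).
Of 60 ribosome biogenesis factors 57 lay below 0, with a median of −0.27 and 7 with an unadjusted p under 0.05. Those with the smallest p were Nop10 (−0.59) and Nhp2 (−0.54) of the H/ACA particles that guide pseudouridylation of rRNA, Nip7 (−0.56) and the rRNA methyltransferase Fbl (−0.53). Of 10 elongation factors 7 lay below 0, with a median of −0.39, and Eef1b2 was at 996, 1012 and 908 CPM in EMT6-P and 707, 609.6 and 598 CPM in EMT6-PTR. The medians were −0.34 over 14 other mRNAs with a TOP tract, −0.16 over 34 initiation factors, −0.13 over 14 genes of RNA polymerase I and its factors and −0.06 over 25 genes of growth control of ribosome synthesis. None of these genes had an adjusted p under 0.05 by edgeR. Among ribosomal protein genes with a listed start site, the median log2 fold change was −0.42 both for the 29 genes with a pyrimidine run within 5 bases and for the 30 genes without one. This split is by the letters at listed starts. The starts used in these tumors, and so which of the mRNAs carry a TOP tract, were not measured.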

How the data were processed

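RNA of 6 primary tumors (3 EMT6-P, 3 EMT6-PTR) and 1 metastasis was sequenced by the authors from stranded polyadenylated libraries. The submitters' processing notes name FastQC 0.11.5, STAR 2.6.0a, RSEM 1.3.1 and the build GRCm38. The deposited values are RSEM's expected counts per gene, not normalized, of which 13.5% to 15.6% per library are fractional. RSEM shares reads among near-identical genes by estimation, which affects genes with processed pseudogenes.

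Identifiers were matched to GENCODE M21 of the same assembly, and 53360 of 53465 had a symbol. Expected counts were rounded, filtered with filterByExpr and normalized with upper-quartile factors, and edgeR 4.0.16 (glmQLFit, glmQLFTest; R 4.3.3) gave the test, with Benjamini-Hochberg adjustment over all 15645 genes tested and a threshold of 0.05. Standard errors are the log2 fold change divided by the square root of F. Log2 CPM used a prior count of 2. Principal length is the median over the principal transcripts of the annotation. The metastasis was described without a test. Totals per library were 20430110 to 25213472 counts. The limit given for Rpl10l covers counting error only, while the standard errors also take in the spread between tumors.

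The ribosomal protein genes and all gene lists were chosen with earlier results of these data known. Genes named with values are those of fixed role lists, the 5 with the smallest p, the 3 highest and 3 lowest by log2 fold change, by level relative to the median gene, by level per kilobase and by the difference of the metastasis, and up to 4 genes of other lists by smallest p. Rpl7a and Rpl10a are named as calls of DESeq2, and Rpl35a for its pseudogenes, all after their values were seen. Values of 2 genes that the rules name are not reported here. The alternatives were TMM factors, DESeq2 1.42.0, limma-voom (limma 3.58.1), other count filters, the metastasis in the fit, a replicate block and leaving out each tumor. The fits were tested on simulated counts. Python 3.11.15 with pandas 2.3.3 and matplotlib 3.10.9 was used for tables and plots.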

Additional observations from a re-analysis of the deposited data

How the results depend on the processing

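No ribosomal protein gene had an adjusted p under 0.05 in edgeR, limma-voom or any edgeR alternative, and DESeq2 called 8. The number of genes with an unadjusted p under 0.05, 31 of 79, was 10 with the replicate block, between 25 and 37 under the other scalings, filters and tests, and between 6 and 72 when 1 tumor was left out. Genes whose groups did not overlap numbered 39, 36 to 41 under the other scaling and filters, and 39 to 75 when 1 tumor was left out, 59 of them when EMT6-P lost replicate 3 and 75 when EMT6-PTR did. The share of all genes without overlap and lower in EMT6-PTR, 11.8% with all tumors, was then 16.2% and 21.8%, and 13.8% to 20.8% for the other tumors. Leaving out a tumor can only keep or add genes without overlap, so that the lower end of 39 was fixed in advance. The median log2 fold change, −0.41, was between −0.42 and −0.39 under the other scalings, filters and tests. Leaving out 1 tumor moved the number of genes higher by 0.3 or more against the median ribosomal protein gene from 3 to between 1 and 5, and the number lower from 0 to between 0 and 1. Of 454 alternative values of 35 named genes, 448 kept their direction. The other 6 were in 3 genes. Rpl30 was at −0.082 under limma-voom and −0.079 under the replicate block, at −0.00023 when EMT6-P replicate 2 was left out, and between −0.41 and 0.28 over all tumors left out in turn, the lowest for EMT6-PTR replicate 3. Rpl3l ranged from −0.87, for EMT6-PTR replicate 1 left out, to 3.57, and Rps24 from −0.27 to 0.15, the latter for EMT6-PTR replicate 1 left out. The cause was not tested.

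Replicate numbers are shared between the groups by name. The correlations of same-numbered tumors' deviations from their group means were 0.26, 0.25 and 0.038 for replicates 1, 2 and 3. Those of differently numbered tumors lay between −0.29 and 0.098. EMT6-P replicates 1 and 2 correlated best with the EMT6-PTR tumor of the same number, and EMT6-P replicate 3 with EMT6-PTR replicate 1. The main fit did not take the numbers as pairs, and whether they mark pairs or a batch was not tested. With the replicate block, 10 ribosomal protein genes had an unadjusted p under 0.05, against 4.36% of all genes, and 0 were called. All but 3 genes had at least 5 CPM in every library. Rpl39l and Rpl10l were too low to be tested, and the Rpl3l value rested on 382 counts in EMT6-PTR replicate 1.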

Other observations

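Eef1a2, which replaces Eef1a1 as elongation factor in muscle and neurons, was at 9.16, 0.514 and 4.76 CPM in the EMT6-P tumors, 59.3, 0 and 0 CPM in the EMT6-PTR tumors and 0.0799 CPM in the metastasis. It was chosen after its values were seen. Its 3 highest libraries were those with the highest summed skeletal muscle markers, as for Rpl3l.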
